A study of Homo sapiens with 4 samples.

Results

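The 10 genes HSPD1, HSPE1, HSPA9, DNAJA3, TRAP1, LONP1, CLPP, CLPX, AFG3L2 and YME1L1 encode chaperones and proteases of the mitochondrion and were taken by gene symbol as a working list for the mitochondrial unfolded protein response. All 10 were found among the 56832 genes of the deposited table of normalised counts. The RNA came from A375, an established human melanoma cell line recorded as wild type and grown in DMEM with 10% FBS. Cells received 1 mM octanoate, a saturated medium-chain fatty acid, or the solvent isopropanol as vehicle, each for 48 h. There were 2 libraries per group, named vehicle 1 and 2 and octanoate 1 and 2. The study asked which genes and gene signatures rise under octanoate. All 4 libraries come from a single cell line, and the labels do not say whether the replicates were separate cultures, so p-values measure only the spread between these libraries.

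Most mitochondrial proteins are made in the cytosol, threaded unfolded through the membranes and folded inside, while misfolded or unassembled chains are degraded there. When this balance is disturbed, cells can raise nuclear genes for mitochondrial chaperones and proteases, a programme called the mitochondrial unfolded protein response. In mammalian cells mitochondrial stress also activates the integrated stress response, in which phosphorylation of the translation factor eIF2 favours production of the transcription factor ATF4. Octanoate enters mitochondria and is oxidised there.

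HSPD1, the chaperonin HSP60, and HSPE1, its lid HSP10, are transcribed away from each other from a shared promoter, and the stretch between their start sites is shown because the 2 transcripts are compared below. In the RefSeq promoter table (GRCh38.p14), which matched 8 of the 10 genes, HSPD1 starts at 197500274 on the minus strand of chromosome 2 and HSPE1 at 197500379 on the plus strand. Windows from 250 bases before to 50 bases after each start were searched on both strands for 3 motifs: the C/EBP-ATF element TGATGNAAT, bound by ATF4 dimers, the cyclic AMP response element TGACGTCA, and paired heat shock units GAANNTTC or TTCNNGAA, whose matches can overlap. Sequences are written 5′ to 3′ on the strand named, and capitals mark motif matches. The HSPD1, HSPA9 and TRAP1 stretches are the matches among the 8 genes with a window. The HSPA9 match begins 4 bases before the start and runs past it. A stretch of HSPA8, the cytosolic relative of HSPA9, is given for comparison. Further HSPA8 matches, 55 and 50 bases before its start, are not shown.
HSPD1 to HSPE1, chr2:197500275-197500378, plus strand: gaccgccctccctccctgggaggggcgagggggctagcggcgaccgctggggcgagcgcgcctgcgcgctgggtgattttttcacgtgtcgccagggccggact
HSPD1, chr2:197500061-197500090, minus strand: gcattTTCTGGAAAGTTCTGGAAccgagcg
HSPA9, chr5:138575392-138575421, minus strand: ccacgtggttggaggtTTCCAGAAgcgctg
TRAP1, chr16:3717585-3717644, minus strand: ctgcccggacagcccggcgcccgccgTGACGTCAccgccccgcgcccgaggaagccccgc
HSPA8, chr11:123062347-123062386, minus strand: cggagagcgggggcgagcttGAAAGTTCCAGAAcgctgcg

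The stretch of 104 bases between HSPD1 and HSPE1 held none of these motifs. Paired heat shock units lay in windows of HSPD1 and HSPA9, 2 of 8 genes, against 16.2% of all 27305 genes with a window. Those of HSPD1 were 3 overlapping matches ahead of another RefSeq start of the gene. The cyclic AMP response element was held by TRAP1 alone of the 8, against 2.25% of all genes. The C/EBP-ATF element was in 0 of the 8, against 1.22% of all genes. Of 12 ATF4 target genes with a window, 1 held it, so the search missed most of that list. Among 15 cytosolic heat shock genes, 10 (66.7%) held paired heat shock units. A match describes letters in a window only, and its absence says nothing of the factors.

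Each library held from 67785956 to 78005035 recovered reads. Replicates differed by more than sampling noise, with a chi-square divided by its degrees of freedom of 5.28 for vehicle and 7.31 for octanoate. Of markers fixed for the cell line, SOX10, a neural crest factor kept in melanoma, lay between 34072 and 41363 normalised counts, while the pigment genes MLANA (at most 52.0) and TYR (at most 3.93) were near absent. The 8 melanocyte markers summed to between 45149 and 49400 in vehicle and between 38666 and 43758 in octanoate, and 5 markers of dedifferentiated melanoma to between 47669 and 50945 in vehicle and between 66993 and 69492 in octanoate. These sums join genes that differ in direction: NGFR went from 11444 and 10653 to 7401 and 6899, and FOSL1 from 14891 and 13803 to 30295 and 28410. Among the melanocyte markers S100B went from 4234 and 3741 to 1917 and 1746, and MITF from 3533 and 3330 to 2414 and 2511. PMEL went the other way, from 65.8 and 65.9 to 98.2 and 95.4, and S100A1 from 127 and 153 to 165 and 167. SOX10 and MLANA overlapped between the groups, and TYR and DCT, at low counts, were lower in octanoate. Of markers of other cells, the 4 leukocyte genes summed to at most 19.6 in any library. The 4 fibroblast genes summed to 1087 to 1111 in vehicle and 902 to 918 in octanoate, the 3 endothelial genes to 201 to 207 and 338 to 347, and the 4 keratinocyte genes, with KRT1 at 0, to 5673 to 6703 and 4787 to 6441. Among the last, KRT14 went from 1110 and 942 to 266 and 218. KRT10, the largest part of that sum, overlapped between the groups, with 5580 and 4723 in vehicle and 6173 and 4566 in octanoate. The part of these shifts in the results was not tested, and in bulk RNA a smaller share of one kind of cell cannot be told apart from less RNA per cell.

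The mitochondrial chaperone and protease transcripts differed little between octanoate and vehicle. Of the 10 genes, CLPP, the peptidase of the ClpXP complex, was called higher, none was called lower, and 9 did not pass the test (limma, Benjamini-Hochberg adjusted p under 0.05 over the 20250 genes whose mean over the 4 libraries reached 10 normalised counts). That is 10.0% of the list. The background was 29.9% of all tested genes called, 16.2% higher and 13.7% lower. Among the 9003 tested genes with a mean of at least 1000, a range that all 10 genes share, 38.1% were called. The log2 difference on the log2(normalised count + 1) scale, octanoate minus vehicle, had a median of 0.01 over the list, with 5 genes above and 5 below zero, and the median over all tested genes was also 0.01. The median absolute log2 difference was 0.06 over the list, 0.19 over all tested genes and 0.13 over those with a mean of at least 1000.

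For the 9 genes that were not called, the 95% limma intervals of the log2 difference lay between -0.24 and 0.26, which is between 0.849-fold and 1.20-fold. A 2-fold change of any of the 10 is thus outside its interval, while for each of the 9 a smaller change inside its own interval remains possible. The intervals of TRAP1 and LONP1, which are not adjusted for the number of genes, lay just above zero. The groups did not overlap for 6 of the 10 genes (60.0%), 3 with octanoate higher and 3 with octanoate lower, beside 63.1% of all tested genes.

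**Figure D1:**
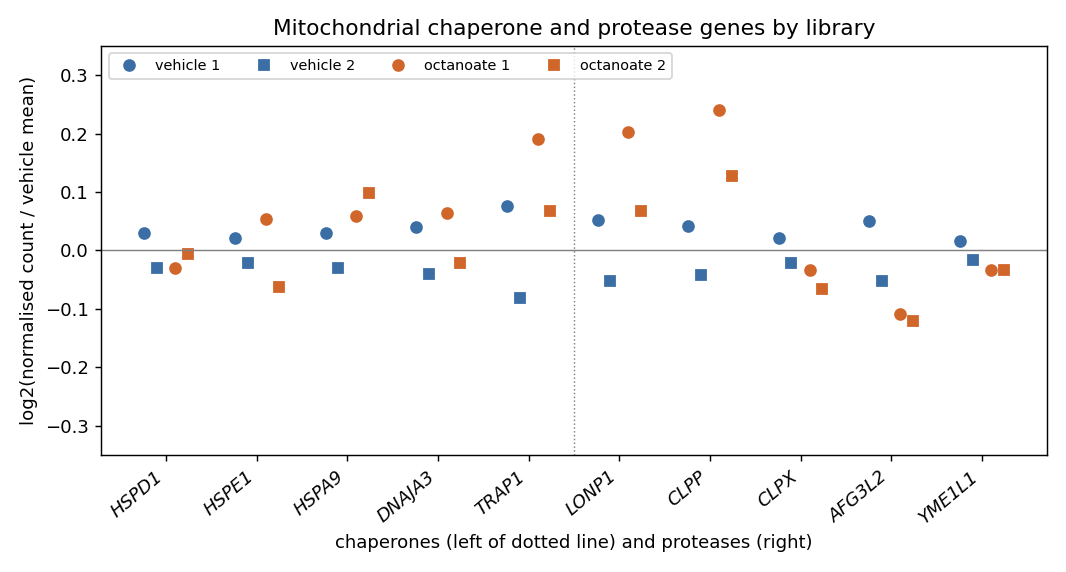
Normalised count of each of the 10 genes in each library, as log2 of the ratio to the vehicle mean of that gene (blue, vehicle; orange, octanoate; circles, replicate 1; squares, replicate 2). Values of HSPD1, HSPE1, DNAJA3 and TRAP1 overlap between the groups, and CLPP shows the highest octanoate values.

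HSPD1 forms the large folding chamber of the matrix. Its normalised count was 87332 and 83769 in vehicle and 83815 and 85148 in octanoate. Both octanoate libraries lay between the vehicle libraries. The log2 difference was -0.02 (SE 0.06, 95% interval -0.15 to 0.11, limma adjusted p 0.865).

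HSPE1 closes that chamber while a chain folds. It stood at 3594 and 3486 normalised counts in vehicle and at 3673 and 3391 in octanoate, so the octanoate libraries were both the highest and the lowest of the 4. The log2 difference was -0.00429 (SE 0.06, 95% interval -0.13 to 0.12, limma adjusted p 0.969). The log2 ratio of HSPE1 to HSPD1 counts was -4.60 and -4.59 in vehicle and -4.51 and -4.65 in octanoate. The ratio of the pair thus moved by 0.01 between the group means, within the gap of 0.14 between the octanoate libraries.

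HSPA9, the mitochondrial Hsp70 also called mortalin, drives import and folds incoming chains. Its counts were 52338 and 50264 in vehicle and 53426 and 54928 in octanoate. The groups did not overlap, yet the log2 difference of 0.08 (SE 0.06, 95% interval -0.04 to 0.20) was not called (limma adjusted p 0.347).

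DNAJA3, a J protein that delivers substrates to HSPA9, had 9841 and 9305 normalised counts in vehicle and 10010 and 9429 in octanoate. The groups overlapped, with replicate 1 above replicate 2 in both. Its log2 difference was 0.02 (SE 0.06, 95% interval -0.10 to 0.14, limma adjusted p 0.819). The log2 ratio of DNAJA3 to HSPA9 counts overlapped between the groups as well.

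TRAP1, the mitochondrial member of the HSP90 family, stood at 9772 and 8763 in vehicle and at 10573 and 9706 in octanoate. Octanoate 2 lay below vehicle 1, and the vehicle libraries differed by 11.5%, the widest vehicle gap of the 10 genes. The log2 difference of 0.13 (SE 0.06, 95% interval 0.00102 to 0.26) was not called (limma adjusted p 0.123). Without vehicle 1 it was 0.21 and called (limma adjusted p 0.0360), and without vehicle 2 it was 0.05.

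Of the 5 proteases, 2 had higher and 3 lower values in octanoate with groups that did not overlap, beside 63.1% of all tested genes not overlapping. LONP1, the soluble matrix protease that removes oxidised and unfolded proteins, had 18245 and 16970 counts in vehicle and 20261 and 18458 in octanoate. Both octanoate libraries were above both vehicle libraries, the nearest pair by a small margin. The log2 difference was 0.14 (SE 0.06, 95% interval 0.01 to 0.26, limma adjusted p 0.0956), which did not pass the test. It was 0.07 without octanoate 1, 0.08 without vehicle 2 and 0.20 without octanoate 2. With equal column totals LONP1 was called (limma adjusted p 0.0453).

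CLPP is the barrel-shaped peptidase of the matrix and depends on CLPX to unfold its substrates. It had 4875 and 4603 normalised counts in vehicle and 5597 and 5175 in octanoate. Both octanoate libraries were higher than both vehicle libraries. The means were 4739 ± 193 and 5386 ± 299 (SD, n = 2 each), a rise of 13.6%, or 0.18 on the log2 scale (SE 0.06, 95% interval 0.06 to 0.31, limma adjusted p 0.0247). In the authors' deposited comparison CLPP had a log2 fold change of 0.18 and a DESeq2 adjusted p of 0.0341. It was the only one of the 10 genes under 0.05 there (10.0%), beside 4329 of all 33533 genes listed (12.9%). The call was lost without vehicle 2 (log2 difference 0.14, limma adjusted p 0.172) and without octanoate 1 (0.13, limma adjusted p 0.273). It was lost too when the limma variance prior had no intensity trend (limma adjusted p 0.221) and when every gene with a read was tested (limma adjusted p 0.167).

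CLPX is the ATP-driven unfoldase that feeds CLPP. Its counts were 8855 and 8589 in vehicle and 8523 and 8327 in octanoate, both below the vehicle libraries. The log2 difference of -0.05 (SE 0.06, 95% interval -0.17 to 0.07) was not called (limma adjusted p 0.553). The log2 ratio of CLPX to CLPP counts was 0.86 and 0.90 in vehicle and 0.61 and 0.69 in octanoate. The 2 groups of ratios were apart by 0.23 in their means, against gaps of 0.04 and 0.08 between replicates. With 2 libraries against 2, an exact two-sided permutation test cannot give a p below 0.333, and that is its p for this ratio.

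AFG3L2 and YME1L1 are membrane-bound AAA proteases whose catalytic sides face the matrix and the intermembrane space. AFG3L2 had 5609 and 5222 normalised counts in vehicle and 5024 and 4981 in octanoate. Both octanoate libraries were lower, with a log2 difference of -0.11 (SE 0.06, 95% interval -0.24 to 0.00887, limma adjusted p 0.158). Without vehicle 1 the difference was -0.06. YME1L1 had 20518 and 20076 in vehicle and 19840 and 19833 in octanoate. Its log2 difference was -0.03 (SE 0.06, 95% interval -0.15 to 0.08, limma adjusted p 0.707). The log2 ratio of YME1L1 to AFG3L2 counts was 1.87 and 1.94 in vehicle and 1.98 and 1.99 in octanoate.

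**Figure D2:**
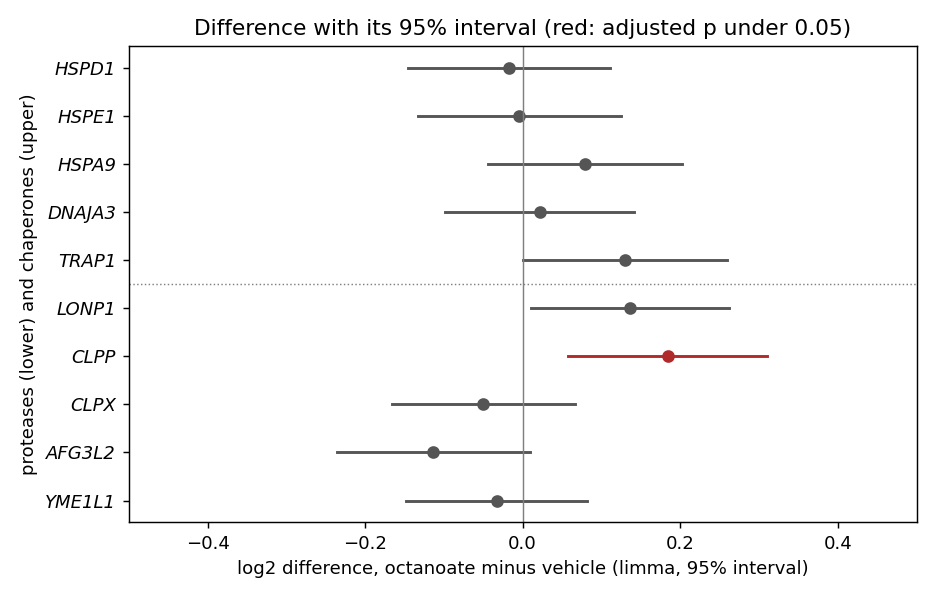
Log2 difference between octanoate and vehicle for the 10 genes (points) with its 95% limma interval (lines); CLPP, in red, has an adjusted p of 0.0247 and the other 9 were not called. The intervals of HSPD1, HSPE1, HSPA9, DNAJA3, CLPX, AFG3L2 and YME1L1 include zero.

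The 10 genes shared a difference between replicates. All 10 were higher in vehicle 1 than in vehicle 2, and 8 were higher in octanoate 1 than in octanoate 2. Among tested genes with a mean of at least 1000, 77.9% were higher in vehicle 1 and 64.3% in octanoate 1, so the genes of the list went with the majority. For the list the gap was from 2.20% (YME1L1) to 11.5% (TRAP1) between the vehicle libraries and from 0.0328% (YME1L1) to 9.76% (LONP1) between the octanoate libraries.

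Levels of different genes were compared per kilobase of exon in GENCODE 29 (GRCh38), averaged over the 4 libraries. HSPD1 was highest at 20027 normalised counts per kb, followed by HSPA9 at 6390, LONP1 at 3635 and YME1L1 at 2736. Then came CLPP (2222), TRAP1 (1856) and HSPE1 (1789), whose library values overlapped from one to the next. CLPX (1570), DNAJA3 (1364) and AFG3L2 (786) were lowest, each separate from its neighbours. On this length the chaperonin transcript stood 11.2-fold above that of its lid. Per kilobase of the longest principal transcript the ratio was 9.30-fold, and only CLPX and DNAJA3 exchanged places. With the shorter HSPE1 transcript that begins at the RefSeq start (570 bases), HSPE1 came to 6204 per kb, above LONP1 at 5712, and the ratio was 5.58-fold. The rank of HSPE1 thus depends on the transcript assumed.

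**Figure D3:**
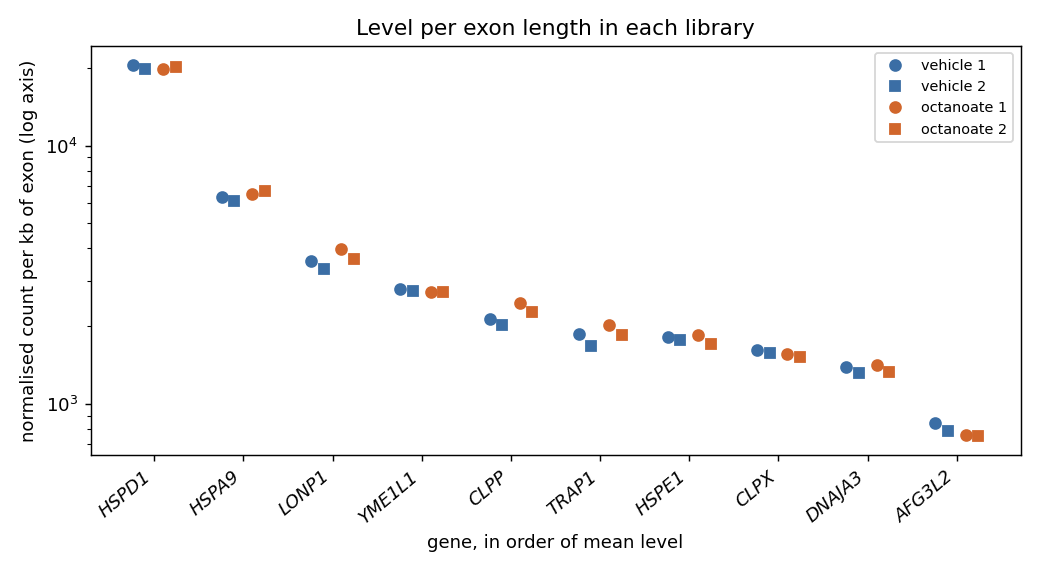
Normalised count per kilobase of exon for the 10 genes in each library, on a log axis, in order of the mean level. HSPD1 lies above HSPA9 and the other 8 genes in all 4 libraries, and AFG3L2 lies lowest.

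The count of HSPE1 is uncertain. In GENCODE 29 the gene spans chr2:197499994-197503457 and shares 192 bases of its exons with HSPE1-MOB4, a read-through gene on the same strand, and 281 bases with HSPD1 on the opposite strand. The shared read-through part is 33.7% of the transcript that begins at the RefSeq start. HSPE1-MOB4 was listed at 0 in all 4 libraries although it contains these exons. HSPE1 transcripts also matched 7 pseudogenes at an identity of at least 95%, over up to 309 bases. How reads shared between genes were counted is not given in the sources used here, and its part in the low HSPE1 level was not tested.

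Other genes of the list share sequence as well. HSPD1 (chr2:197486581-197516737) matched HSPE1 and 5 pseudogenes, the longest match being 1726 bases with the pseudogene HSPD1P1. HSPA9 (chr5:138553756-138575724) matched HSPA9P1 over 1434 bases. On the opposite strand, DNASE1 exons cover 29.3% of the exons of TRAP1 (chr16:3651639-3717597), TUBB6 exons cover 12.6% of those of AFG3L2 (chr18:12328944-12377314) and MASTL exons cover 6.04% of those of YME1L1 (chr10:27110112-27155266). Whether reads were counted by strand is not given in the sources used here either. The log2 difference was 0.04 for DNASE1, -0.11 for TUBB6 and -0.03 for MASTL, none of them called by limma. For LONP1 (chr19:5691834-5720572) and CLPP (chr19:6361452-6368910) exons of other genes covered 0.846% and 1.54%, and matches to unrelated genes ran to at most 124 and 125 bases. CLPX (chr15:65148219-65185342) and DNAJA3 (chr16:4425805-4456775) had no exon overlap and no such match.

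Factors that signal mitochondrial stress include both ATF4 and ATF5. Of 20 genes listed for this signalling, 8 were called higher and 2 lower, beside 29.9% of all tested genes called either way. The median log2 difference of the 20 was 0.11. The list also holds NRF1, ESRRA, PPARGC1A and TFAM, genes of mitochondrial biogenesis. The 2 lower calls were ATF5, given below, and TFAM (log2 difference -0.20, limma adjusted p 0.0121). ATF4 rose from 28967 and 27092 normalised counts in vehicle to 37801 and 36088 in octanoate, a log2 difference of 0.40 with a limma adjusted p of 1.23e-05 (SE 0.06). DDIT3, which encodes the stress factor CHOP, rose by 0.52 (SE 0.09, limma adjusted p 9.21e-05). ATF5, a relative of ATF4 named as a mammalian regulator of the mitochondrial response, fell from 885 and 855 to 568 and 634, a log2 difference of -0.54 with a limma adjusted p of 3.45e-05 (SE 0.09). The AP-1 factors JUN and ATF3 rose by 1.38 and 1.26. HSF1, the heat shock factor, had a log2 difference of 0.11 and was not called (limma adjusted p 0.241).

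Targets of ATF4 were higher over most of their list. Of 15 tested, 12 were called higher and none lower (80.0%, beside 29.9% of all tested genes called either way). The median log2 difference of these targets was 0.40. They include MTHFD2, a mitochondrial enzyme of folate metabolism, which rose from 15523 and 15804 normalised counts to 22733 and 22322, a log2 difference of 0.52 with a limma adjusted p of 8.53e-08 (SE 0.06). GDF15, a secreted stress hormone, and CHAC1, which degrades glutathione, rose by 2.21 and 1.46 on the log2 scale. FGF21 was below the count minimum. Among the 5 mitochondrial chaperones limma called 0, beside 29.9% of all tested genes, with log2 differences from -0.02 to 0.13. Of these, TRAP1 had an unadjusted limma p under 0.05, and it was called without vehicle 1 and with the replicate number as a block. On recovered reads edgeR and DESeq2 also called 0 of the 5, beside 32.0% and 24.4% of all tested genes.

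**Figure D4:**
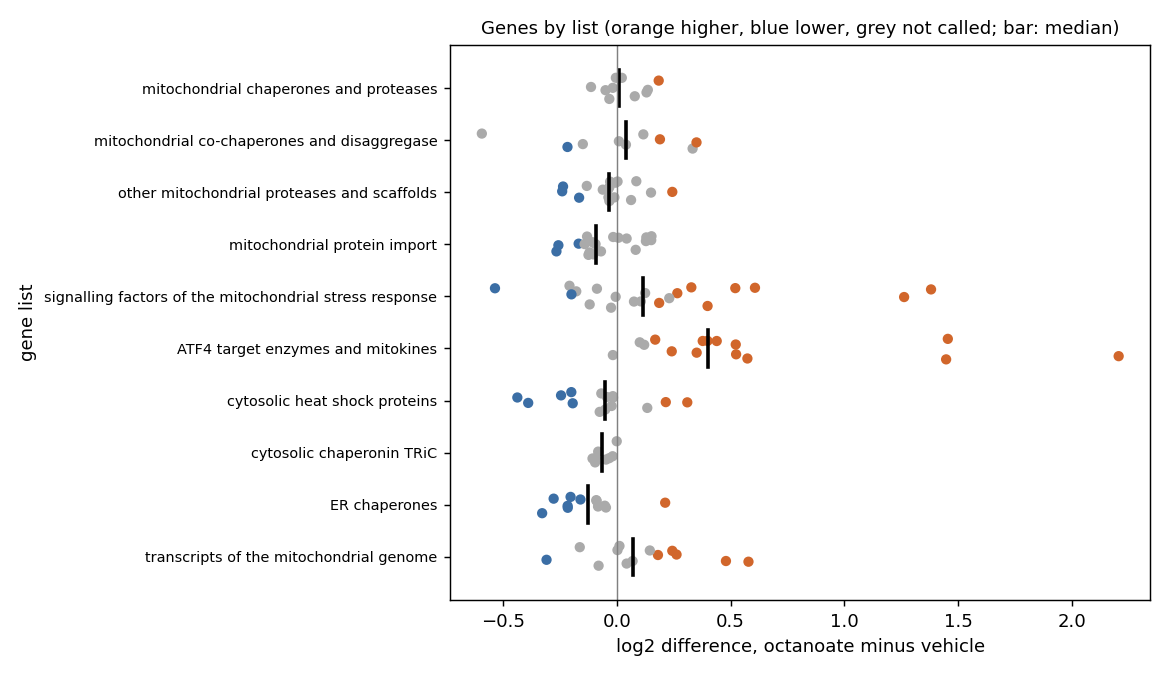
Log2 difference of each tested gene in 10 lists (points; orange called higher, blue called lower, grey not called) with the list's median (black bar). The mitochondrial chaperones and proteases have a median of 0.01 and the ATF4 targets one of 0.40.

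Partners of the mitochondrial chaperones were called in both directions, at a share near that of all tested genes. Of 9 co-chaperones and related factors, 2 were called higher and 1 lower (33.3%, beside 29.9% of all tested genes). The median log2 difference of the list was 0.04. That median was -0.03 without octanoate 1 and 0.11 without octanoate 2. CLPB, a disaggregase of the intermembrane space, rose from 5465 and 4796 normalised counts to 6622 and 6432, a log2 difference of 0.35 with a limma adjusted p of 0.000154 (SE 0.06). GRPEL2, a nucleotide exchange factor for HSPA9, rose by 0.19 on the log2 scale (SE 0.06, limma adjusted p 0.0178). Its paralogue GRPEL1 had a log2 difference of 0.12 and was not called (limma adjusted p 0.134). DNAJC11, a J protein linked to cristae organisation, had a log2 difference of -0.22 with a limma adjusted p of 0.00863 (SE 0.06). The call of GRPEL2 was lost without vehicle 1, without vehicle 2 and without octanoate 2, and that of DNAJC11 without vehicle 1 and without octanoate 2, while that of CLPB was kept in all 4 fits with a library left out.

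Of 17 other mitochondrial proteases, processing enzymes and scaffolds, 1 was called higher and 3 lower (23.5%, beside 29.9% of all tested genes). The median log2 difference of the list was -0.03. OMA1, a stress-activated protease of the inner membrane, went from 1818 and 1744 normalised counts in vehicle to 1499 and 1524 in octanoate, a log2 difference of -0.24 with a limma adjusted p of 0.0103 (SE 0.07). SPG7, which assembles with AFG3L2, had a log2 difference of -0.17 with a limma adjusted p of 0.0328 (SE 0.06). MIPEP, a presequence-processing peptidase, had one of -0.24 and was called lower, while LACTB, a filament-forming protein of the intermembrane space, had one of 0.24 and was called higher. HTRA2, a serine protease of the intermembrane space, and the prohibitin gene PHB, with log2 differences of -0.04 each, were not called. The SPG7 call was lost whichever of the 4 libraries was left out. The OMA1 call was lost without vehicle 1 or octanoate 1, the MIPEP call without vehicle 1 and the LACTB call without vehicle 2 or octanoate 2. All 3 lower calls were thus lost without vehicle 1. Each limma fit with a library left out also called a smaller share of all tested genes than the main fit. Without vehicle 1 the median log2 difference over all tested genes was 0.02, and a larger part of all calls was higher than in the main fit.

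Of 19 tested genes of protein import, limma called 3 lower and 0 higher (15.8%, beside 29.9% of all tested genes). The median log2 difference of the list was -0.09. TOMM40, the channel of the outer membrane, went from 12607 and 10786 to 10338 and 9212, a log2 difference of -0.26 with a limma adjusted p of 0.00616 (SE 0.07). TOMM22, a receptor of the same complex, had a log2 difference of -0.17, and GFER, an oxidase of the intermembrane space, one of -0.27. The TOMM40 and GFER calls were lost without vehicle 1 or octanoate 2, and the TOMM22 call also without octanoate 1. Without vehicle 1 none of the 3 lower calls was kept, and TOMM40 had a log2 difference of -0.14 there. None was kept without octanoate 2 either, where a call in the other direction appeared. On recovered reads edgeR called 1 gene higher and 4 lower, beside 32.0% of all tested genes called. DESeq2 called 1 higher and 5 lower there, beside 24.4%. Of the 13 protein-coding transcripts of the mitochondrial genome, 5 were called higher and 1 lower (46.2%, beside 29.9% of all tested genes). The median of these transcripts was 0.07. Fewer were called higher whichever library was left out. On recovered reads edgeR and DESeq2 each called 2 lower, and more were also called lower without vehicle 2. MT-ND4 and MT-ND4L, which share a transcript, rose by 0.58 and 0.48, and MT-ND1 had a log2 difference of -0.31.

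Chaperones of other compartments give a comparison by family, in which members of a family did not all move alike. HSPA8, the constitutive Hsp70 of the cytosol, fell from 209827 and 203237 normalised counts to 162426 and 152973, a log2 difference of -0.39 with a limma adjusted p of 0.000112 (SE 0.07). HSPA5, the Hsp70 of the endoplasmic reticulum, went from 99278 and 93446 to 79041 and 79858, a log2 difference of -0.28 with a limma adjusted p of 0.00151 (SE 0.06). Both were thus called lower, while their mitochondrial relative HSPA9 had a log2 difference of 0.08. A test between the genes was not made. In the authors' deposited comparison the cytosolic Hsp70 genes HSPA1A and HSPA1B had log2 fold changes of -0.02 and 0.13 (DESeq2 adjusted p 0.914 and 0.190). Of the relatives of TRAP1 there, HSP90AA1 rose by 0.31 (DESeq2 adjusted p 1.56e-07). HSP90AB1 and HSP90B1 had -0.05 and -0.09 (DESeq2 adjusted p 0.523 and 0.211). Of 15 cytosolic heat shock genes, 2 were called higher and 5 lower (46.7%, beside 29.9% of all tested genes). The median of the 15 was -0.05. Fewer were called higher without octanoate 1 or vehicle 2, and fewer lower without vehicle 1 or octanoate 2. The J proteins DNAJA1 and DNAJB1 had log2 differences of -0.44 and -0.25. Of 12 chaperones of the endoplasmic reticulum, 1 was called higher and 6 lower (58.3%, beside 29.9% of all tested genes). The median of the 12 was -0.13. Fewer were called lower whichever library was left out. Each of those fits also called a smaller share of all tested genes than the main fit. The higher call was lost by limma whichever library was left out, and by DESeq2. The calcium-binding chaperone CALR had a log2 difference of -0.33 and HYOU1, a large Hsp70 relative, one of -0.22. The HYOU1 call was lost without vehicle 1 or octanoate 2. None of the 8 genes of TRiC, the cytosolic chaperonin related to HSPD1, was called by limma, beside 29.9% of all tested genes. The median log2 difference of the 8 was -0.06. At an unadjusted p under 0.05 limma had 0, edgeR 1 and DESeq2 3, with no call by either after adjustment. The lowest adjusted p among them was 0.188, for CCT5 (log2 difference -0.11).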

How the data were processed

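Per the submitters' processing notes, bcl2fastq 2.17, Trim Galore, STAR 2.4, Picard, HTSeq 0.9.1 and DESeq2 were used with build hg38; roles, annotation and strand setting are not given in the sources used here. The deposited signal per gene and library is a count that the authors normalised with DESeq2, per the file name. All positive values were whole multiples of the smallest one of their library (within 0.01 of a whole multiple, 100.0% of values), so whole reads could be recovered. The authors' deposited comparison holds a log2 fold change, a test score and p-values.

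Differences come from limma 3.58.1 (R 4.3.3), with a trended variance prior and treatment as the only term. Its input was log2(normalised count + 1) of genes with a mean of at least 10, which all 10 genes passed. Low genes have understated changes on this scale. Tested on simulated data, the fit made more false calls than its threshold allows and missed most of the smallest changes (0.25 on the log2 scale). Far fewer genes were changed there than were called here, so both shares may differ in these data. Members and lists were chosen with earlier results of these data known. Named genes were the 10 members, the 3 genes with the smallest p of each other list, and GRPEL1, CLPB, SPG7, OMA1, HTRA2, PHB, ATF4, ATF5, DDIT3 and HSF1. Overlap partners, TFAM, HSPA1A, HSPA1B, HSP90AA1, HSP90AB1 and HSP90B1 were chosen after their values were seen. AFG1L and DELE1 were found under older symbols. Alternatives were pseudocounts of 0.5 and 5, other filters and scalings, no trend, a replicate block, leaving out each library, and edgeR 4.0.16 and DESeq2 1.42.0 on recovered reads. Transcripts of GENCODE 29 were compared with blastn 2.17.0 (at least 95% identity over at least 100 bases).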

Additional observations from a re-analysis of the deposited data

How the results depend on the processing

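The count of 1 called member was kept with both pseudocounts, a mean of at least 50, TMM scaling, edgeR and DESeq2 on recovered reads, CLPP being the called gene each time. It was 0 when every gene with a read was tested, where 2595 of 43449 genes were called (5.97%). It was also 0 without an intensity trend, where 1625 of 20250 genes were called (8.02%), in place of 6048 of 20250 (29.9%) in the main fit. It was 2 with equal column totals, where LONP1 was called too (log2 difference 0.13, limma adjusted p 0.0453), beside 32.5% of all genes tested. The count was not the same in every fit with a library left out. With the replicate number as a block, 4 members and 8376 genes were called: CLPP, TRAP1 (0.13, limma adjusted p 0.00583), LONP1 (0.14, limma adjusted p 0.00339) and AFG3L2 (-0.11, limma adjusted p 0.0264). The replicate number does not pair the libraries by the labels, and the deviations of replicate 1 from its group mean correlated at 0.126 across genes. The CLPP difference was 0.18 both when every gene with a read was tested and without a trend, where its call was lost. HSPE1 changed sign with TMM scaling (0.0109). With a library left out, log2 differences ranged from -0.048 to 0.012 for HSPD1, -0.062 to 0.053 for HSPE1, -0.021 to 0.065 for DNAJA3, 0.052 to 0.21 for TRAP1, 0.07 to 0.20 for LONP1, 0.13 to 0.24 for CLPP and -0.17 to -0.06 for AFG3L2. HSPA9, CLPX and YME1L1 kept their direction and stayed uncalled in all 14 alternatives.

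With transcript lengths chosen after seeing the data, the level of HSPD1 per kb over that of HSPE1 was 9.30-fold (longest principal transcript) or 5.58-fold (HSPE1 transcript at its RefSeq start) in place of 11.2-fold. Of the genes in the other 9 lists, 52 were called, against 25 when every gene with a read was tested, 10 without a trend, and from 34 to 46 with a library left out. The list medians then ranged from -0.033 to 0.11 for co-chaperones, -0.14 to -0.048 for import, 0.38 to 0.46 for ATF4 targets and -0.090 to -0.022 for TRiC. Leaving out a library leaves 1 in its group, assumed to vary like the other group. The causes were not tested. With 2 libraries per group, the log2 differences of HSPD1, HSPE1, DNAJA3, CLPX and YME1L1 lie within their standard error of about 0.06.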
